A study of Mus musculus with 5 samples.

Results

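The genes described here are those of the urokinase plasminogen activator system and of the matrix metalloproteases, namely Plau, Plaur, Mmp9, Mmp13 and Timp1. They were taken by name, and all 5 are among the 1489 genes of the table. RNA was sequenced from RAW264.7 cells, a mouse macrophage line, in 5 libraries. Control cells received PBS (n = 2), cells of the LPS model received LPS, the endotoxin of Gram-negative bacteria (n = 2), and the library labelled AMN31 came from cells given LPS and an anti-inflammatory compound (n = 1). The label of that library names no compound, and the methods of the study give compound 13, the fungal isocoumarin 5-chloro-6-hydroxymellein, with RNA collected after 24 h of co-treatment. The cell model used LPS at 0.1 μg/ml and compounds at 10 μM, doses that are not restated for the sequenced cells. Neither the labels nor the methods say that replicates were separate cultures, so the p-values below rest on a spread that may be purely technical. For the single library with compound 13, the spread of the other groups was assumed.

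Urokinase, the product of Plau, is a secreted serine protease that cuts plasminogen into plasmin, and its receptor, the product of Plaur, holds it at the cell surface. Plasmin dissolves fibrin and can cut the proforms of matrix metalloproteases, zinc enzymes that degrade collagen, gelatin and other matrix proteins. Mmp9 encodes gelatinase B and Mmp13 collagenase 3, and Timp1 encodes a secreted inhibitor that binds active metalloproteases. Macrophages release these proteases when they enter and remodel inflamed tissue.

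Values are FPKM, fragments scaled to exon length and to the reads of the library, which can be compared between genes. Whole reads could be recovered from them, and the libraries held from 16172500 to 17145000 reads. Tests were run with limma on log2(FPKM + 1), a scale on which the change of low genes is understated, over the 1053 genes with FPKM at or above 1 in at least 2 libraries or with compound 13. All 5 genes passed this filter. Mmp13 passed through its values in the LPS model alone, and Mmp9 and Timp1 through those of the LPS model and of compound 13, so for these 3 genes a difference from the control was built into passing, and for Mmp13 a lower value with compound 13 as well. Calls required an adjusted p (Benjamini-Hochberg, over all tested genes) below 0.05. Between control and LPS model 96.1% of the tested genes were called, so the listed genes are nearly all ones that differ there. The adjustment covers listed genes only, and the rule that selected them is not given. A small adjusted p with LPS is thus common to nearly all listed genes. With LPS, 766 of the 1053 genes were higher and 246 lower (408 and 408 with median-of-ratios rescaling, 463 and 346 with quantile normalization). The median log2 fold change with LPS over all tested genes went from 0.96 to 0 and 0.16 under these rescalings. Both could draw only on genes of the table, whereas FPKM is scaled to all reads of a library. The listed genes held 8.0% and 8.2% of reads in control libraries, 17% and 17.15% in LPS model libraries, against 16.8% with compound 13. A rise shared by most listed genes is thus largely taken out by the rescalings. Whether it should be was not tested. Of 12 macrophage markers, 4 are among the 1489 genes (Itgam, Cd14, Fcgr1 and Cx3cr1), and all had reads in every library. Their summed FPKM was 852 and 896 in the control, then 1460 and 1435 in the LPS model, against 1493 with compound 13, and most of it was Cd14. Itgam and Cd14 were higher with LPS (Cd14 lower after the rescalings, at −0.29 and −0.17), and Cx3cr1 was lower (log2 fold change −1.39, limma adjusted p = 5.66e-06). Fcgr1 was not called without rescaling (−0.15, limma adjusted p = 0.114). It was called lower after both rescalings (limma adjusted p = 0.000109 and 0.000927), at −1.29 with median-of-ratios rescaling.

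Promoter sequences are shown as a description of these genes, and whether they are regulated together was not tested. RefSeq promoters were matched for 3 of the 5 genes, Plaur, Mmp13 and Timp1, and not for Plau and Mmp9. Each sequence gives the 250 bases before the start site on the plus strand of GRCm38.p6, with matches to TGACTCA, the site of the AP-1 factors, and to TATAAA in capitals. The regions are chr7:24462233-24462482 for Plaur, chr9:7272264-7272513 for Mmp13 and chrX:20869916-20870165 for Timp1.
Plaur: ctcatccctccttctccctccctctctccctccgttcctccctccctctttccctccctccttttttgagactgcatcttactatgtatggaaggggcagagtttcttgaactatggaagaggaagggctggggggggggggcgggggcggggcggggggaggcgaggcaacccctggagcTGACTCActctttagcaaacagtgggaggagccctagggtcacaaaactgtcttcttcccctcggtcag
Mmp13: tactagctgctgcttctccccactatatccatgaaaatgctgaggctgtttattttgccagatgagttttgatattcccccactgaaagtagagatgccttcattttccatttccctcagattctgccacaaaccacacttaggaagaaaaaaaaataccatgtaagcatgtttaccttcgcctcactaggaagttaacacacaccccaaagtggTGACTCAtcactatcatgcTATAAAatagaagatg
Timp1: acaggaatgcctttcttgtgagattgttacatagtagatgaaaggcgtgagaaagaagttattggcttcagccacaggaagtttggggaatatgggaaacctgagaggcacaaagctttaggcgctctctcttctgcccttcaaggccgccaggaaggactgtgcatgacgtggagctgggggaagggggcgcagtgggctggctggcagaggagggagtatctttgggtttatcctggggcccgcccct
TGACTCA, searched on both strands from 250 bases before to 50 after the start, was present in the promoters of Plaur (first base 69 before the start) and Mmp13 (35 before), and in 5.2% of all 32851 promoters of this length. TATAAA followed it in Mmp13 with its first base 16 before the start, and 13.6% of all promoters held it. Timp1 had neither of these motifs, and none of the 3 held the NF-kB site, which 4.5% of all promoters held. The ETS core GGAA was in all 3 and in 96.0% of all promoters. These letter matches describe the sequence only, and the listed motifs do not overlap each other in these promoters.

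All 5 genes were higher in LPS model than in control cells, Mmp9 most and Mmp13 least on the log2(FPKM + 1) scale (Plau least after the rescalings or with a pseudocount of 0.1). As 72.7% of all tested genes were called higher in this comparison, the count of 5 of 5 says little by itself. The log2 fold changes with LPS after median-of-ratios rescaling were 3.79 for Mmp9, 1.45 for Plaur, 1.36 for Timp1, 0.90 for Mmp13 and 0.56 for Plau, all called, and after quantile normalization all but that of Plau were called. With compound 13, Plau, Mmp13 and Timp1 were lower than in the LPS model (3 of 5, beside 7.22% of all tested genes called lower, 0.38% higher and 7.6% in either direction), Mmp9 missed the threshold, and the FPKM of Plaur stood within the range of the LPS model libraries. Of the 76 tested genes called lower, 23 had passed the filter through LPS model libraries alone, Mmp13 among them. Under median-of-ratios rescaling or quantile normalization these 3 genes were still lower but none was called. Over all tested genes 4 were higher and 76 lower, against 0 and 0, and 4 and 4, under these rescalings. The median log2 fold change of the 5 genes was 2.06 with LPS and −0.40 with compound 13, beside 0.96 and −0.08 over all tested genes.

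**Figure D1:**
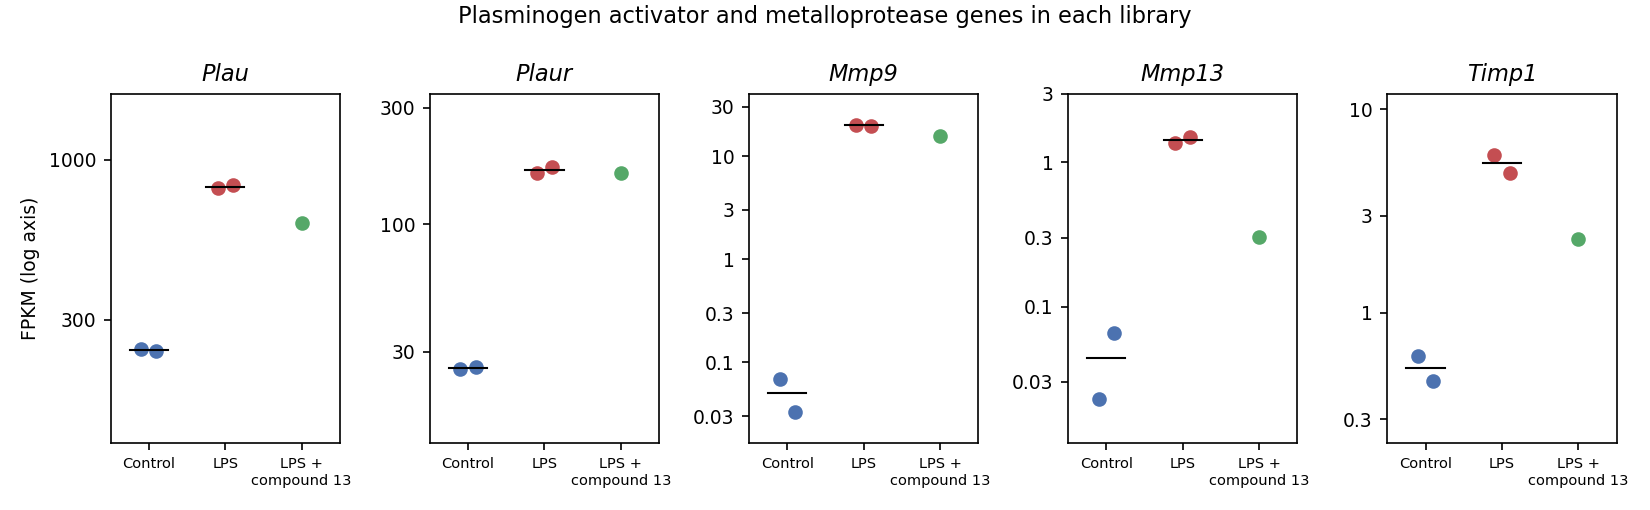
FPKM of the 5 genes in each library, on a log axis with its own range for each gene. Points are libraries (2 control, 2 LPS model, 1 LPS with compound 13) and lines are means of the pairs. The LPS model libraries lie above the control libraries for all 5 genes, and the library with compound 13 lies below the LPS model libraries for 4, the exception being Plaur at 161.6 between 161.3 and 171.2.

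Plau (ENSMUSG00000021822; GRCm38 chromosome 14, 20836662 to 20843388, plus strand) was among the most abundant genes of the table. Its FPKM was 239.9 and 237.5 in the control, then 810 and 825 in the LPS model, against 620 with compound 13. The groups did not overlap, and the library with compound 13 lay between control and LPS model. Plau ranked 9 and 10 of 1489 genes by FPKM in the control, 9 in both LPS model libraries and 11 with compound 13. With LPS it rose from 239 ± 1.71 to 818 ± 10.4 (SD, n = 2 each), a ratio of 3.43 and a log2 fold change of 1.77 (SE 0.03, limma adjusted p = 1.43e-06). After quantile normalization this log2 fold change was 0.03 and was not called (limma adjusted p = 0.27). That method puts the highest values of all libraries on the same level. With median-of-ratios rescaling the log2 fold change was 0.56. Both values describe Plau relative to the other listed genes, most of which rose as well. With compound 13 Plau fell by 24.2% from the LPS model mean, or −0.40 as a log2 fold change (SE 0.04, limma adjusted p = 0.0193). Its read ratio to the LPS model was 0.758 (95% counting interval 0.747 to 0.770), an exact interval that covers counting error only. This call was lost without LPS model replicate 1 and without replicate 2 (limma adjusted p = 0.164 and 0.168), at log2 fold changes of −0.41 and −0.39, and after the rescalings (−0.23 with adjusted p = 0.0585 and −0.22 with adjusted p = 0.07 from limma).

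Plaur (ENSMUSG00000046223; chromosome 7, 24462484 to 24475968, plus strand), the receptor gene, had an FPKM of 25.5 and 26.0 in the control, then 161.3 and 171.2 in the LPS model, against 161.6 with compound 13. Both stimulated conditions lay far above the control, and the library with compound 13 lay inside the FPKM range of the LPS model. The mean rose from 25.8 ± 0.365 to 166 ± 6.99 (SD, n = 2 each), a ratio of 6.45 and a log2 fold change of 2.64 (SE 0.04, limma adjusted p = 1.43e-06; 1.45 and 1.44 after the rescalings). With compound 13 the log2 fold change against the LPS model was −0.04 (SE 0.05, limma adjusted p = 0.698; 0.13 and 0.03 after the rescalings and 0.0029 without LPS model replicate 2, again not called). The read ratio was 0.973 (counting interval 0.945 to 1.00). This interval and that of Plau (0.747 to 0.770) did not overlap, so the difference between the enzyme gene and its receptor gene in the library with compound 13 was larger than counting error, and a difference beyond the spread between libraries was not tested.

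Mmp9 (ENSMUSG00000017737; chromosome 2, 164940780 to 164955850, plus strand) was nearly silent in the control, with 4 and 2 reads (FPKM of 0.0683 and 0.0331). LPS model libraries held 1186 and 1129 reads (FPKM of 20.2 and 19.7), and that with compound 13 held 954 (FPKM of 15.7). Control and stimulated libraries were far apart, and the library with compound 13 lay below both of the LPS model. Over the groups the ratio of reads with LPS was 396 (95% counting interval 182 to 1082). The fold change of log2(FPKM + 1) was 4.32 (SE 0.06, limma adjusted p = 1.07e-06), at rank 12 from the top among 1053 tested genes. With compound 13 the ratio of reads to the LPS model was 0.788 (0.730 to 0.850). The log2 fold change of −0.33 was not called (SE 0.08, limma adjusted p = 0.0735), although it was called in a fit of only the groups compared (limma adjusted p = 0.0317) and by limma-voom on recovered reads (adjusted p = 0.0159). It was also called without control replicate 1 or replicate 2 (limma adjusted p = 0.0483 and 0.0476). It was not called without LPS model replicate 1 or replicate 2 (limma adjusted p = 0.314 and 0.302), with a pseudocount of 0.1 (0.348), with a replicate block (0.138), or after the rescalings, where it was −0.16 and −0.23 (0.356 and 0.224).

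Mmp13 (ENSMUSG00000050578; chromosome 9, 7272514 to 7283331, plus strand) was the least abundant of the 5 genes in both stimulated conditions. Control libraries held 1 and 3 of its reads, LPS model libraries 60 and 65, and that with compound 13 held 14. These reads are FPKM of 0.0227 and 0.0657, of 1.35 and 1.50, and of 0.306. The library with compound 13 lay between the groups, nearer to the control than to the LPS model. LPS raised reads 32.1-fold (95% counting interval 12.2 to 119.7). The log2 fold change, compressed by the pseudocount, was 1.22 (SE 0.09, limma adjusted p = 7.11e-05). With compound 13 the ratio to the LPS model was 0.214 (0.114 to 0.373), a fall of 78.6% in mean FPKM and a log2 fold change of −0.89 (SE 0.11, limma adjusted p = 0.0194). As Mmp13 reached the filter in LPS model libraries alone, this direction was built into its being tested. The call held when any LPS model or control replicate was left out (adjusted p from 0.0275 to 0.0389 from limma). With a pseudocount of 0.1 the log2 fold change was −1.91 and the call was lost, as it was after the rescalings (limma adjusted p = 0.0523, 0.0585 and 0.0752).

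The deposited table holds 2 further metalloprotease genes beside Mmp13 on chromosome 9, Mmp12, the macrophage elastase gene, and Mmp3, a stromelysin gene, which start 71.9 kb and 173 kb downstream of the start of Mmp13. Mmp12 (7344381 to 7369499) had 5 and 12 control reads, 1298 and 1414 in the LPS model, against 1313 with compound 13. It thus rose with LPS like Mmp13 (log2 fold change 3.54, SE 0.08, limma adjusted p = 2.39e-06), and its FPKM with compound 13 was 10.6, below 10.8 and 12.1 in the LPS model, a difference that was not called (log2 fold change −0.10, SE 0.10, limma adjusted p = 0.583). Mmp3 (7445822 to 7455975) had 0 and 0, 5 and 8, and 4 reads, too few for the filter. Mmp12 and Mmp3 were singled out for their position after their values were seen, and whether the response to compound 13 differs between Mmp12 and Mmp13 was not tested.

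Timp1 (ENSMUSG00000001131; chromosome X, 20870166 to 20874735, plus strand), the inhibitor gene, had 9 and 7 control reads, 88 and 70 in the LPS model, against 35 with compound 13. Its FPKM was 0.612 and 0.461, 5.97 and 4.87, and 2.30. The 3 conditions did not overlap, with compound 13 in between. With LPS the mean FPKM rose from 0.536 ± 0.107 to 5.42 ± 0.777 (SD, n = 2 each), a ratio of reads of 10.1 (95% counting interval 6.06 to 18.2) and a log2 fold change of 2.06 (SE 0.11, limma adjusted p = 2.71e-05). With compound 13 the ratio of reads to the LPS model was 0.423 (0.285 to 0.614), a fall of 57.6% in mean FPKM and a log2 fold change of −0.96 (SE 0.14, limma adjusted p = 0.0308). This call was lost without LPS model replicate 1 or replicate 2 (limma adjusted p = 0.164 and 0.112), with a pseudocount of 0.1 (adjusted p = 0.0663) and after the rescalings (adjusted p = 0.0741 and 0.109).

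**Figure D2:**
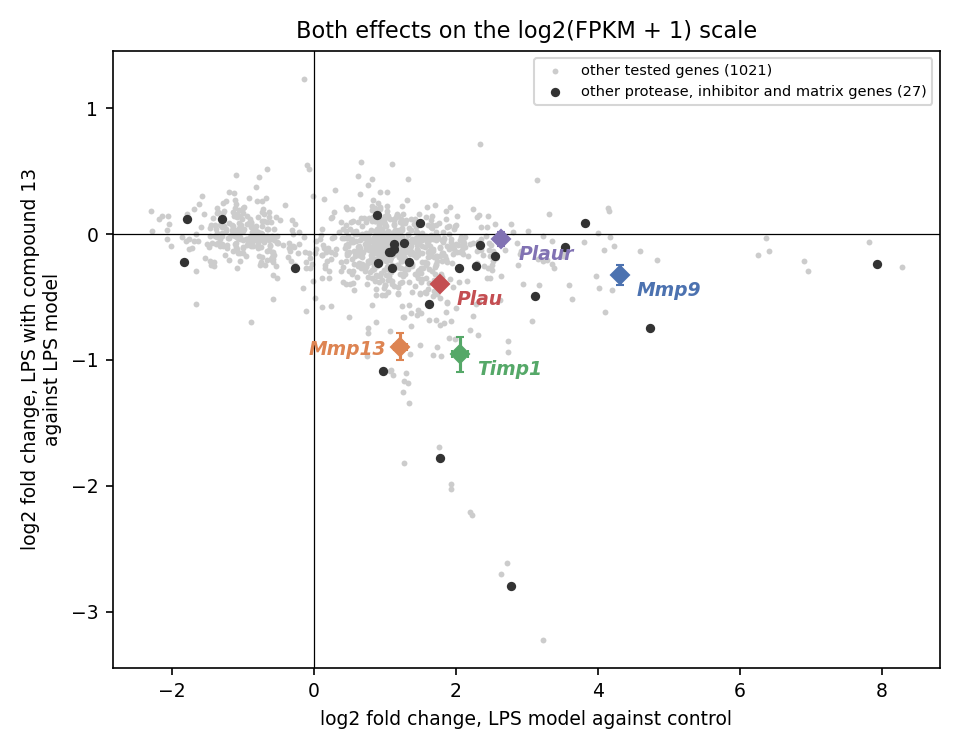
Log2 fold change with LPS (x axis, LPS model against control) and with compound 13 (y axis, against the LPS model) on the log2(FPKM + 1) scale. Diamonds are the 5 genes with SE from limma, black points 27 other protease, inhibitor and matrix genes, grey points the remaining tested genes. Timp1 and Mmp13 lie near −0.96 and −0.89 on the y axis, Plau and Mmp9 at −0.40 and −0.33 and Plaur at −0.04 (0.13 and 0.03 after the rescalings).

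Against the control, all 5 genes were still higher with LPS and compound 13 (except Plau after quantile normalization), as were 68.1% of all tested genes (92% were called in either direction). Of all tested genes 717 were higher and 252 lower, against 358 and 357 with median-of-ratios rescaling and 420 and 335 with quantile normalization. This comparison shares its libraries with both comparisons above. The log2 fold changes were 3.99 for Mmp9, 2.60 for Plaur, 1.37 for Plau, 1.10 for Timp1 and 0.32 for Mmp13 (adjusted p of 3.76e-06, 4.89e-06, 6.54e-06, 0.000855 and 0.0335 from limma). Plau turned to −0.20 after quantile normalization (limma adjusted p = 0.00267) and stayed higher at 0.33 with median-of-ratios rescaling. After the rescalings Plaur was at 1.58 and 1.47 and Timp1 at 0.59 and 0.71, all called. Mmp13 was no longer called after the rescalings (limma adjusted p = 0.142 and 0.434) or without control replicate 1 or 2 (adjusted p = 0.16 and 0.106), and its 14 reads against 4 over the control gave a ratio of 6.87 (95% counting interval 2.16 to 28.7).

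The share of the LPS-induced increase in FPKM that was present with compound 13 differed widely among the 5 genes. It was 96.7% for Plaur, 78.7% for Mmp9, 65.9% for Plau, 36.1% for Timp1 and 18.9% for Mmp13. Taken with each pair of a control and an LPS model library, these shares ran from 93.4% to 100.2%, 77.8% to 79.7%, 65.0% to 66.8%, 31.5% to 41.7% and 16.7% to 21.3%. Neighbours in this order did not overlap in these ranges, which keep the library with compound 13 fixed and leave out its error. Counting intervals of the read ratio to the LPS model overlapped for Timp1 and Mmp13 (0.285 to 0.614 and 0.114 to 0.373). They also overlapped for Mmp9 and Plau (0.730 to 0.850 and 0.747 to 0.770), but not for the other neighbours. Over the 766 genes called higher with LPS the median share was 86.5%, with quartiles of 70.5% and 97.1%. Plaur and Mmp9 thus lay between the quartiles and the other 3 genes below them, with 20.5%, 5.88% and 4.18% of these 766 genes lower than Plau, Timp1 and Mmp13. These shares restate the same libraries on a linear scale and carry no test. They were taken on FPKM without rescaling. After quantile normalization the log2 fold change of Plau with LPS was 0.03 and not called, which leaves its share without meaning on that scale. The 766 genes were themselves chosen with the LPS model libraries that enter each share. For Mmp13, which passed the filter through those libraries alone, a value with compound 13 below the LPS model was built in.

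**Figure D3:**
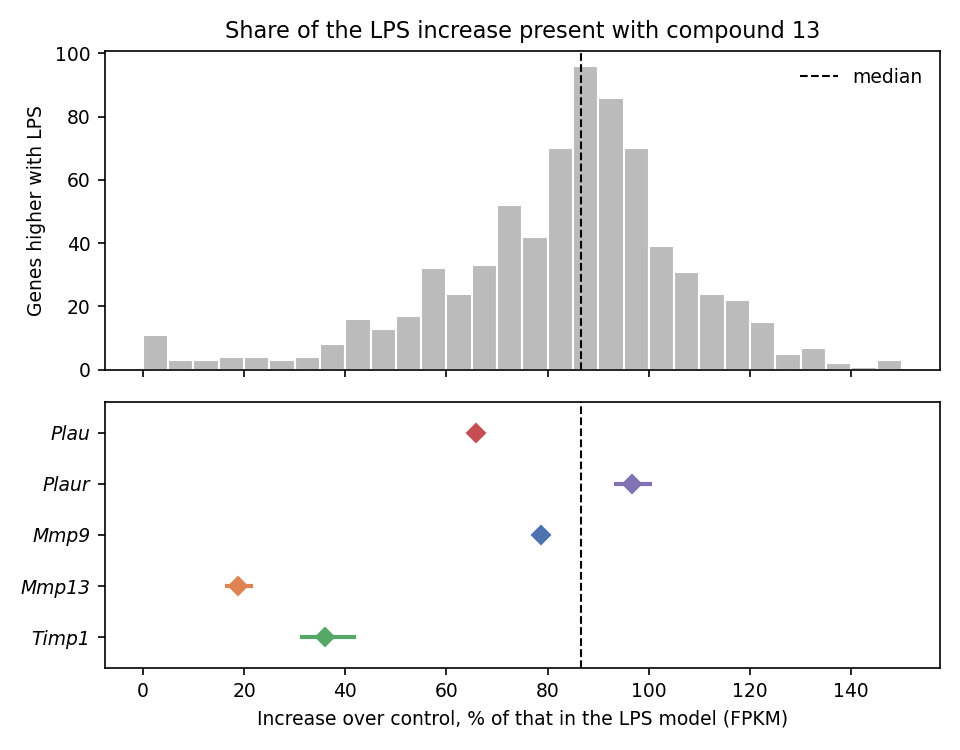
Share of the LPS-induced increase in FPKM present in the library with compound 13, in percent. Top, histogram of genes called higher with LPS (740 of 766 lie between 0 and 150%); bottom, the 5 genes with lines for the lowest and highest value over 4 pairs of control and LPS model libraries. The dashed line is the median of 86.5%, and Mmp13, Timp1, Plau and Mmp9 lie to its left.

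Because FPKM is scaled to length, ratios between the genes can be followed within each library. Plau exceeded Plaur 9.41-fold and 9.13-fold in the control, 5.02-fold and 4.82-fold in the LPS model and 3.84-fold with compound 13. The activator was thus more abundant than its receptor in every library, and the ratio was lower in each stimulated library than in the control. Mmp9 stood at 0.112 and 0.0719 times the level of Timp1 in the control, at 3.38 and 4.05 times in the LPS model and at 6.84 times with compound 13. The protease transcript was therefore below that of the inhibitor in the control and above it in the 3 stimulated libraries. Mmp13 stayed below Timp1 throughout, at ratios of 0.0371 and 0.143, of 0.227 and 0.309, and of 0.133 with compound 13, where the control ratios rest on 1 and 3 reads of Mmp13. Such ratios of RNA do not measure protein or enzyme activity.

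**Figure D4:**
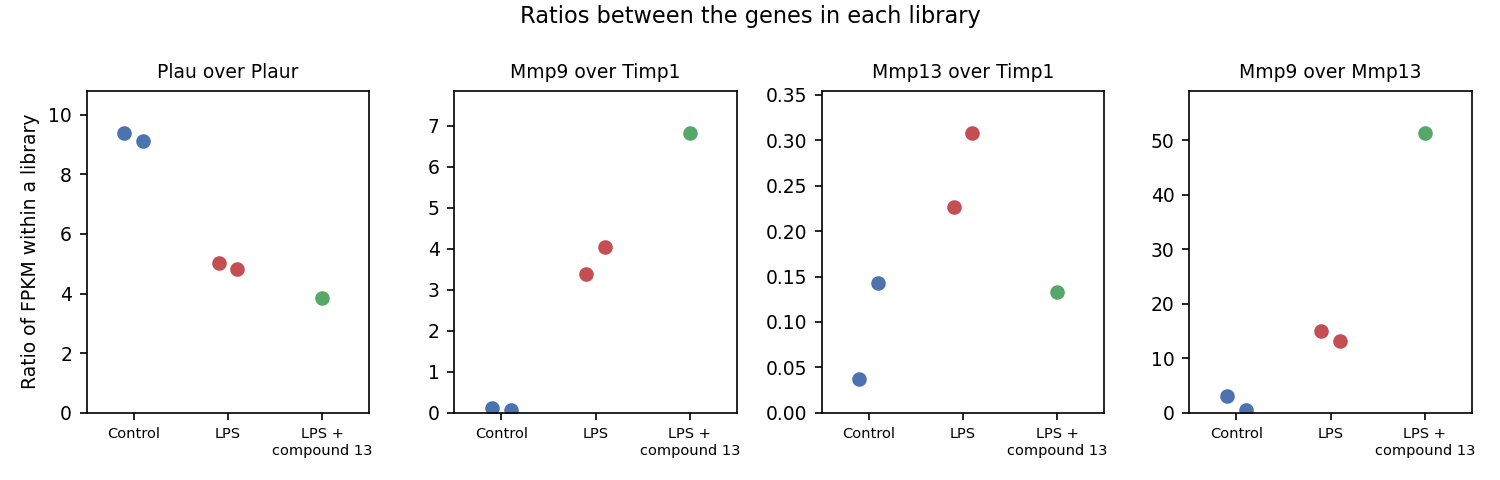
Ratios of FPKM between pairs of the 5 genes within each library, on linear axes that start at 0. Points are libraries. Plau over Plaur falls from 9.41 and 9.13 in the control to 3.84 with compound 13, Mmp9 over Timp1 rises from 0.112 and 0.0719 to 6.84, and Mmp9 over Mmp13 is 14.9 and 13.1 in the LPS model, against 51.4 with compound 13.

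Other genes of the same systems were followed through 7 lists, which hold 165 genes besides the 5 described above. Of these, 45 are among the 1489 genes and 27 were tested. With LPS 23 of the 27 were higher and 4 lower (85.2% and 14.8%, beside 72.7% and 23.4% of all tested genes), and 11 of the 27 had reached the filter in no control library. After the rescalings 16 were higher and 6 lower, and 18 and 6. With compound 13 against the LPS model 4 were lower and the others were not called (14.8% lower, beside 7.22% of all tested genes). Of these 4, Pcolce, Serpinh1 and Sparc had passed the filter through LPS model libraries alone, so a lower value with compound 13 was built into their being tested. After quantile normalization Serpinh1 was still called lower and Cstb, a cystatin gene, was called higher, and with median-of-ratios rescaling these 4 lost their calls (limma adjusted p from 0.0503 to 0.13). The median log2 fold change of all 27 with compound 13 was −0.22, beside −0.08 over all tested genes. After the rescalings it was −0.06 and −0.05, beside 0.05 and 0.03 over all tested genes.
In the plasminogen list, the 4 other tested genes were all higher with LPS, as were 72.7% of all tested genes, and 3 of the 4 had reached the filter in no control library. Serpinb2, which encodes a urokinase inhibitor, had 0 reads in both control libraries, 299 and 294 in the LPS model, against 209 with compound 13. Taken against a floor of 3 reads over both control libraries, its rise with LPS was at least 203-fold. It was lower with compound 13 (log2 fold change −0.49, SE 0.09, limma adjusted p = 0.0431). Plat, the tissue-type activator, stayed below the filter with 2 and 1 control reads, 15 and 16 in the LPS model, against 1 with compound 13.
Among metalloprotease inhibitors and regulators, the 3 other tested genes were higher with LPS (Furin at −0.25 after median-of-ratios rescaling) and 1 of them, Pcolce, was lower with compound 13. Lcn2, whose lipocalin product binds gelatinase B in humans, had 0 reads in both control libraries, 204 and 215 in the LPS model, against 189 with compound 13, at least 144-fold higher with LPS. Pcolce, an enhancer of procollagen processing, had 15 reads in each control library, 116 and 66 in the LPS model, against 9 with compound 13 (log2 fold changes of 0.97 with LPS and −1.09 with compound 13, adjusted p = 0.0466 for the latter from limma). Timp2 was below the filter with 21 and 16, 41 and 37, and 6 reads. The inhibitor genes Timp1 and Timp2 were thus both lower by reads with compound 13 than in either LPS model library, and Timp2 also lower than in either control library.
The list of ADAM proteases was represented by Adam33 and by Rhbdf2, a regulator of the sheddase ADAM17, both higher with LPS (1.50 and 1.13 on the log2 scale, with Rhbdf2 at −0.04 after median-of-ratios rescaling) and not called with compound 13. Among 9 tested cathepsin and cystatin genes, 5 were higher and 4 lower with LPS, beside 72.7% and 23.4% of all tested genes. Cstb and Ctsl, among the former, turned to −0.32 and −0.08 after median-of-ratios rescaling. After quantile normalization both were called lower, at −0.95 and −0.48 (limma adjusted p = 6.35e-07 and 0.000379). The stefin genes Stfa3 and Stfa2 rose by 7.94 and 4.74, while Cst7, Ctsf and Cst3 had log2 fold changes of −1.84, −1.79 and −1.30. Of 5 other tested serine protease and serpin genes, all were higher with LPS (72.7% of all tested genes were; Serpinb6b was not called after median-of-ratios rescaling), led by the elastase inhibitor gene Slpi at 3.82. Serpinh1, a collagen chaperone gene, was lower with compound 13, having 1 and 0 reads in control libraries, 286 and 197 in LPS model libraries and 0 with compound 13, at least 84.2-fold lower.
Of the 14 matrix substrate genes in the table only Spp1, Ecm1 and Sparc passed the filter, and these were higher with LPS (Spp1 and Ecm1 at 0.05 and −0.0031 after median-of-ratios rescaling, not called). Reads of Sparc numbered 0 and 1 in control libraries, 193 and 117 in LPS model libraries and 0 with compound 13, at least 54.1-fold lower than in the LPS model (limma adjusted p = 0.0194).

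Some genes listed as markers of other cell types moved in the same direction as Timp1 and Mmp13. Among the 1489 genes, 77 reached 10 reads in both LPS model libraries with no more than 3 in any other. None of the 5 genes was among them, while 11 of the 45 other protease, inhibitor and matrix genes were, Plat, Thbs1, Serpinh1, Sparc and Fn1 included. Of 8 epithelial markers 3 are listed, Krt8, Krt18 and Krt19, and their summed FPKM was 0 in both control libraries, 19.6 and 12.5 in LPS model libraries and 0 with compound 13. Of 10 mesenchymal markers 3 are listed, Col3a1, Sparc and Acta2, with summed FPKM of 0.576 and 0.508 in the control, then 7.55 and 7.20 in the LPS model, against 4.36 with compound 13. With compound 13 the whole sum was Acta2, since Col3a1 and Sparc had 0 reads. Of 5 endothelial markers 3 are listed, Cdh5, Kdr and Cav1, with sums of 0.0633 and 0.0279, 1.71 and 1.43, and 0.275. Cav1 went from 75 and 58 reads in LPS model libraries to 0 with compound 13, whereas Cdh5 had 17 and 21 reads and then 17. Timp1 had 35 reads and Mmp13 14 reads in the library in which the 3 keratin genes had 0. Whether any of these reads came from cells other than macrophages was not tested. In these bulk libraries fewer cells of a type and less RNA per cell cannot be told apart.

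The genes closest to each of the 5 were found by Euclidean distance over the 5 libraries of log2(FPKM + 1), each taken relative to its control mean. For Plau they were Ifi44, Vegfa and Tuba1a (distances of 0.104, 0.105 and 0.112), and for Plaur they were Nfkbiz, Layn and Odc1 (0.0835, 0.156 and 0.247). For Mmp9 they were Socs3, Ccl3 and Upp1 (0.22, 0.281 and 0.323). Mmp13 was closest to Gm13400, Cpe and Ifi211 (0.25, 0.301 and 0.306), and Timp1 to Apol9b, Nqo1 and Sdc3 (0.252, 0.336 and 0.345). None of the 5 was among the nearest 3 of another, and the closest pair was Plau and Timp1 at 0.533, with Plau at rank 14 from Timp1. The profiles share libraries and groups, so a small distance describes similar levels of change and nothing further.

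In the annotation terms of the deposited table, the 5 genes mostly shared a place outside the cell. Plau, Plaur, Mmp9 and Timp1 carried the term extracellular exosome, which 20.7% of 1329 annotated genes carried. Mmp9, Mmp13 and Timp1 carried proteinaceous extracellular matrix (2.33%), and Plau, Mmp9 and Timp1 extracellular space (13.3%). Metalloendopeptidase activity was given to Mmp9 and Mmp13, and to 8 of 1157 annotated genes in all, these included. Serine-type endopeptidase activity was given to Plau, Mmp9 and Mmp13 (1.47%), although Mmp9 and Mmp13 encode zinc enzymes. The 5 genes lie on 5 different chromosomes.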

How the data were processed

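RNA of RAW264.7 cells was sequenced in 5 libraries with a stranded kit. The authors' deposited table gives log2 FPKM for 1489 genes, and per the labels Trimmomatic 0.32, HISAT2 2.1.0, SAMtools 1.4, DESeq2 and the build mm10 (GRCm38) were used. The counter, the annotation release, the use of strand in counting and the rule that selected the genes are not given in sources used here. Of all values 562 are exactly 0 and were read as no read counted.

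Whole reads were recovered with exon lengths of GENCODE M21, at the depth where FPKM times length gives whole numbers. There, 96.8% to 99.5% of low values fell within 0.1 of an integer, and 49.1% or less did so at any depth over 2% away. Coordinates of 1333 genes, Plau not among them, equal the annotation, so reads of Plau are approximate. Ratios of reads have exact Clopper-Pearson 95% intervals, and folds against 0 reads use a floor of 3 reads over the group.

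The main test was limma 3.58.1 in R 4.3.3 on log2(FPKM + 1) with a trend, all 5 libraries in 1 fit with 2 residual degrees of freedom, and Benjamini-Hochberg adjustment. The calculation was also run on simulated reads in which a minority of genes changed, unlike these data. Its outcome is not given here and supports no result above. Other steps ran in Python 3.11.15 (scipy 1.17.1, pandas 2.3.3, numpy 2.4.6, matplotlib 3.10.9). Promoters are from RefSeq on GRCm38.p6. Named genes are the 5 genes, up to 3 called genes with the largest change per list, comparison and direction, and the 3 nearest profiles of each, while others were named after their values were seen (Plat, Timp2, Mmp3 and marker genes among them). Genes and lists were chosen with earlier results of these data known. Biological process terms were not used, and 1 gene of the plasminogen list is counted but not reported here by name. Alternatives to these settings comprised limma-voom on the recovered reads, leaving out each replicate of control and LPS model, median-of-ratios and quantile scaling, no filter or one at FPKM 10, a pseudocount of 0.1, fits without a trend, with robust settings, with a replicate block or without the third group, and a minimum log2 change of 1 in either direction.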

Additional observations from a re-analysis of the deposited data

How the results depend on the processing

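With 2 libraries or 1 in a group, the compound 13 comparison depended on the processing. Of the 5 genes, 3 were called in it, 1 with a pseudocount of 0.1 or a filter at an FPKM of 10, 0 with median-of-ratios rescaling, after quantile normalization or when a log2 change of 1 or more was also required, and from 1 to 4 when a replicate was left out. Over all genes 80 were called, against 35, 15, 0, 8 and 20 under these alternatives in the same order, 52 with a replicate block, 141 with only the groups compared, 166 by limma-voom on recovered reads, and from 17 (without LPS model replicate 1) to 139 (without control replicate 1). The 0 after rescaling is from limma, where 264 genes had an unadjusted p under 0.05 before it. With LPS, 1012 genes were called, against 484 with the filter at an FPKM of 10 and 622 with the fold change requirement. For compound 13 against control, 969 were called, against 483 and 528. Mmp13 and Timp1 do not pass the filter at an FPKM of 10, which leaves 3 of the 5 genes called in either comparison. Plau reversed to −0.20 after quantile normalization in compound 13 against control, a value relative to the other listed genes. Over single genes, 189 values kept direction and side of the threshold, 3 changed direction without a call in either setting (Plaur with compound 13 against LPS model, at 0.13, 0.03 and 0.0029), 22 lost the call, 4 gained it and 1 reversed. Log2 fold changes of low genes grew with a pseudocount of 0.1, to 7.07 for Mmp9, 3.42 for Mmp13 and 3.12 for Timp1 with LPS, and to 6.72, 1.51 and 1.93 with compound 13 against control. Replicate numbers do not pair the libraries by the labels, and the deviations of replicate 1 of control and LPS model correlated at −0.022 over 1053 genes. With the replicate block, 1012 and 970 genes were called with LPS and with compound 13 against control, and Plau, Mmp13 and Timp1 stayed called against the LPS model (adjusted p = 0.0341, 0.0384 and 0.0278 from limma). Mmp13 lost its call against control with the block (adjusted p = 0.0527 from limma). Low reads limit Mmp13 and Timp1, at 14 and 35 reads with compound 13.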
